A study of Mus musculus with 6 samples.

Results

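The set described here is 32 immediate early genes, found by exact match of their symbols in the gene tables of 6 single-cell libraries, out of 32285 genes listed in each table. The members were chosen for their known place in the early response to a stimulus, with earlier results of these data known. They are Fos, Fosb, Fosl2, Jun, Junb, Jund, Atf3, Maff, Egr1, Egr2, Egr3, Nr4a1, Nr4a2, Nr4a3, Klf6, Csrnp1, Myc, Ier2, Ier3, Ier5, Dusp1, Dusp2, Dusp5, Zfp36, Zfp36l1, Zfp36l2, Btg1, Btg2, Nfkbid, Ppp1r15a, Gadd45b and Rhob. All 32 symbols were matched, and each had unique molecular identifier (UMI) counts in every one of the 6 libraries.

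The cells came from mice bearing EMT6 tumors, a transplanted mouse mammary carcinoma line. There were 3 tissues (bone marrow, spleen and tumor) and 2 genotype labels, BALB/c WT and Cysltr1 KO, the latter for animals deficient in a receptor for cysteinyl leukotrienes. Marrow was enriched with a hematopoietic progenitor isolation kit, and spleen and tumor with a CD45 positive selection kit. Each of the 6 libraries pooled 3 mice, so there was 1 library per tissue and genotype, no difference between libraries could be checked against replicate animals, and the intervals given here cover counting error only. The sex and age of the mice and the way the Cysltr1 deletion was made are not given in the sources used here.

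Immediate early genes are transcribed within minutes of a stimulus, without new protein synthesis, when kinase cascades reach factors such as SRF and CREB that already sit at their promoters. Many of their products are transcription factors, of which FOS and JUN proteins pair to form AP-1, while others, such as the DUSP phosphatases and the ZFP36 RNA-binding proteins, shut the same response down. In single-cell work the same genes are known to rise while tissue is dissociated and handled, as well as when cells are activated in the animal.

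The libraries held 5018 and 6070 cells in marrow, 8343 and 7733 in the spleen and 7947 and 6027 in tumor (WT label first, as in all pairs of values below), with medians of 2580 to 12801.5 UMIs per cell. Library pairs shared 46 to 128 barcodes, 0.79 to 1.43% of the smaller library. Levels are in CPM, the UMIs of a gene scaled to the UMIs of all genes summed over the cells of a class in a library, and in such sums fewer cells with a transcript and less transcript per cell cannot be told apart. Because a UMI stands for a molecule and the labels name both a 5' and a 3' kit, levels of different genes were not scaled to gene length and are compared here between cells, not between genes. Cysltr1 itself had 4.77 and 24.7 CPM in the marrow libraries, 6.92 and 33.2 CPM in the spleen libraries and 9.65 and 7.51 CPM in the tumor libraries. Its level was therefore higher in the marrow and spleen libraries labelled Cysltr1 KO than in those labelled WT, and whether the counted transcript lies in the deleted part is not given in the sources used here, so the label is given throughout as "the library labelled Cysltr1 KO". Whether the labels of these tissues were exchanged was not tested, and if they were, the direction of every label comparison in marrow and spleen would turn. The heat shock transcripts Hspa1a and Hspa1b together differed in the same libraries, with 48.0 and 5.28 CPM in marrow, 72.1 and 5.68 in spleen, and 156 in both tumor libraries.

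Cell classes were named from markers in each cell, so "neutrophil" and the other names stand for cells that carry those markers. Cells with no class are not in the class levels below. They were 38.2 and 29.9% of the marrow cells, 7.59 and 8.35% of the spleen cells and 42.7 and 43.8% of the tumor cells. In natural killer (NK) cells 7 of 9 markers were present in at least 10% of cells, and Klra8 was at 0 (Klra4 also in tumor). The tumor class of cells with keratin or collagen transcripts and no Ptprc UMI, which mixes carcinoma and fibroblast markers, had 9 of its 14 markers in at least 10% of cells in the WT library and 8 in the other, with Krt5 at 0.

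The immediate early genes took 0.890 and 0.858% of all UMIs in marrow, 2.05 and 2.12% in the spleen and 0.812 and 0.899% in tumor. Within a tissue they were carried very unevenly. In marrow the summed level of the 32 members ran from 43655 CPM in cells with basophil or mast cell markers to 1383 CPM in erythroid cells of the WT library, and from 38006 to 1359 CPM in the library labelled Cysltr1 KO. Both marrow libraries had the same first 3 classes. Stem or multipotent progenitors followed the basophil or mast cells with 24246 and 21965 CPM, and monocytes were next with 18500 and 18108 CPM. Marrow neutrophils held 10720 and 8894 CPM, while granulocyte-monocyte progenitors held 3405 and 3020 CPM and immature neutrophils 2711 and 2495 CPM.

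In spleen the range was narrower, and 3 classes lay close together at the top. Type 2 conventional dendritic cells (cDC2) held 34378 and 36710 CPM, NK cells 31713 and 29519 CPM and neutrophils 31025 and 35946 CPM. T cells (20670 and 18988 CPM) and B cells (18723 and 20054 CPM) held less, and immature neutrophils (3278 and 2177 CPM) the least of the 9 classes of the WT library and of the 8 of the other. Red pulp macrophages differed most between the labels, with 16240 and 31740 CPM, but these are 92 and 185 cells of low depth, and the share of members in single cells ran from 0% at the 10th percentile to 2.90 and 5.61% at the 90th. The tumor had the flattest order. Neutrophils led with 15661 and 20901 CPM, monocytes held 10769 and 13025 CPM, and macrophages (7947 and 7951 CPM) and keratin or collagen cells (7853 and 8077 CPM) had nearly equal sums. Over the 6 libraries 28 of 46 library and class combinations had at least 1% of their UMIs in the 32 members. Of 40 neighbouring pairs in the order of classes within a library, 4 had overlapping 95% Poisson intervals, all in WT libraries: type 1 conventional dendritic cells with red pulp macrophages and the latter with plasma cells in spleen, and macrophages with keratin or collagen cells and the latter with T cells in tumor.

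**Figure D1:**
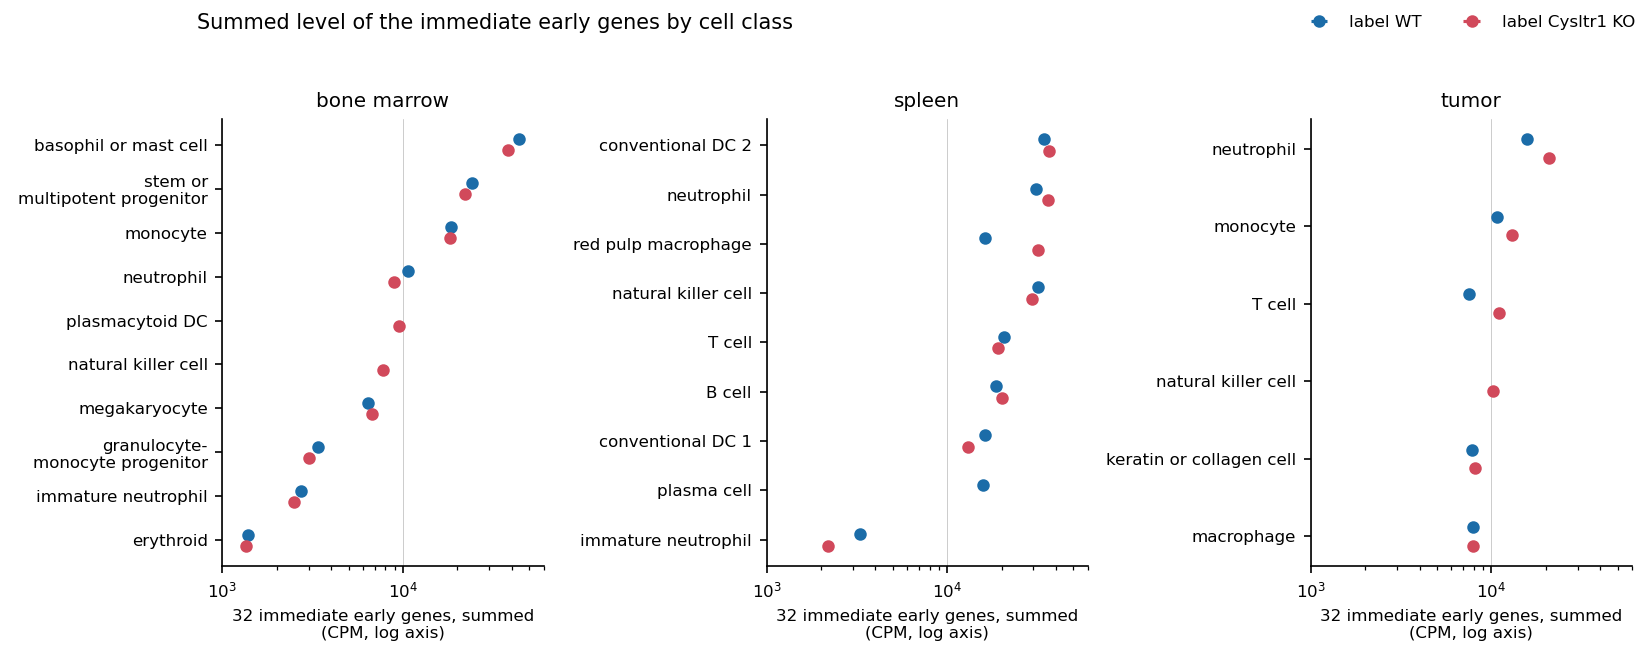
Summed level of the 32 immediate early genes in each cell class with at least 50 cells, in CPM on a log axis, for bone marrow, spleen and tumor, with 1 point per library (blue, label WT; red, label Cysltr1 KO) and exact 95% Poisson intervals, mostly smaller than the points. The order of the shared classes was the same under both labels in marrow and differed in spleen and tumor. The red pulp macrophages of the spleen, at 16240 and 31740 CPM, stood furthest apart.

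The AP-1 genes were led by different members in different cells. Fos, the inducible partner of JUN proteins, had its highest marrow level in monocytes, at 4703 and 4896 CPM, against 2777 and 2867 CPM in basophil or mast cells and 161 and 152 CPM in granulocyte-monocyte progenitors. Jun stood at 7392 and 7069 CPM in basophil or mast cells and at 2538 and 2393 CPM in marrow monocytes. In spleen neutrophils, by contrast, Jun stood at 291 and 208 CPM, far under its 2421 and 3124 CPM in cDC2 of the same libraries. Junb, an AP-1 partner also known to hold back JUN activity, was high in the NK cells (5094 and 5112 CPM), T cells (4992 and 4869 CPM) and neutrophils (4288 and 5182 CPM) of the spleen, and lowest there in immature neutrophils (183 and 186 CPM). Jund, the most steadily transcribed JUN gene, reached 6263 and 4545 CPM in basophil or mast cells and 3275 and 3192 CPM in spleen NK cells. Its tumor maximum was also in lymphocytes, at 1510 CPM in the NK cells of the library labelled Cysltr1 KO. Atf3, a stress-induced repressor of the ATF family, was concentrated in spleen cDC2 (2761 and 2636 CPM) and marrow monocytes (1182 and 1249 CPM), and stood at 9.30 and 8.16 CPM in spleen T cells. Fosl2 and Maff, both of the AP-1 superfamily, had their highest levels over the library classes in tumor neutrophils, where Fosl2 stood at 264 and 265 CPM and Maff at 150 and 189 CPM.

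The EGR and NR4A factors also differed between cells. Egr1 was widely carried in the WT tumor, from 219 CPM in T cells to 658 CPM in neutrophils. Egr1, a zinc-finger factor that binds GC-rich promoters, had its highest marrow level in basophil or mast cells, at 2235 and 1774 CPM, and its highest spleen level in cDC2, at 1164 and 1940 CPM. Egr2 and Egr3, its relatives, stayed low in every class, the highest values being 38.3 CPM for Egr2 in spleen cDC2 and 31.0 CPM for Egr3 in spleen B cells, both with the label Cysltr1 KO. Nr4a1, an orphan nuclear receptor gene used as a readout of antigen receptor signalling, stood at 1295 and 1657 CPM in spleen cDC2, 659 and 985 CPM in spleen NK cells and 418 and 351 CPM in marrow stem or multipotent progenitors. It was close to absent from marrow basophil or mast cells, at 1.87 and 14.6 CPM, although these had the highest sum of all members. Nr4a2 and Nr4a3, the other two genes of the family, had their highest spleen levels in NK cells (220 and 384 CPM) and in cDC2 (149 and 227 CPM). Myc, the growth-promoting transcription factor, had 449 and 497 CPM in spleen B cells, 323 and 366 CPM in marrow stem or multipotent progenitors and 210 and 220 CPM in tumor keratin or collagen cells.

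Genes that end the response were carried by different cells. Dusp1, a phosphatase that inactivates MAP kinases, stood at 6052 and 5622 CPM in spleen neutrophils against 1052 and 750 CPM in spleen T cells. Zfp36, which encodes tristetraprolin and speeds the decay of cytokine mRNA, stood at 4694 and 4972 CPM in spleen neutrophils and at 4890 and 4981 CPM in cDC2. Dusp2, by contrast, was a gene of lymphocytes and progenitors here, with 786 and 687 CPM in spleen NK cells and 509 and 601 CPM in stem or multipotent progenitors. Dusp5, a nuclear phosphatase of ERK, also had its highest spleen level in NK cells, at 506 and 695 CPM. The ZFP36 relatives divided the cells differently: Zfp36l1 had its highest WT spleen level in B cells (1040 CPM, with 1200 CPM in the other library), and Zfp36l2 in NK cells (2354 and 1964 CPM). Ier3, a survival and feedback gene of the NF-kB and ERK pathways, marked basophil or mast cells (3568 and 2993 CPM) and tumor neutrophils (1916 and 2333 CPM), and was nearly absent from spleen B cells at 0.466 CPM in the WT library and 0 in the other. Btg1, an antiproliferative gene, stood at 3752 and 4835 CPM in spleen neutrophils and at 104 and 87.8 CPM in marrow stem or multipotent progenitors.

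**Figure D2:**
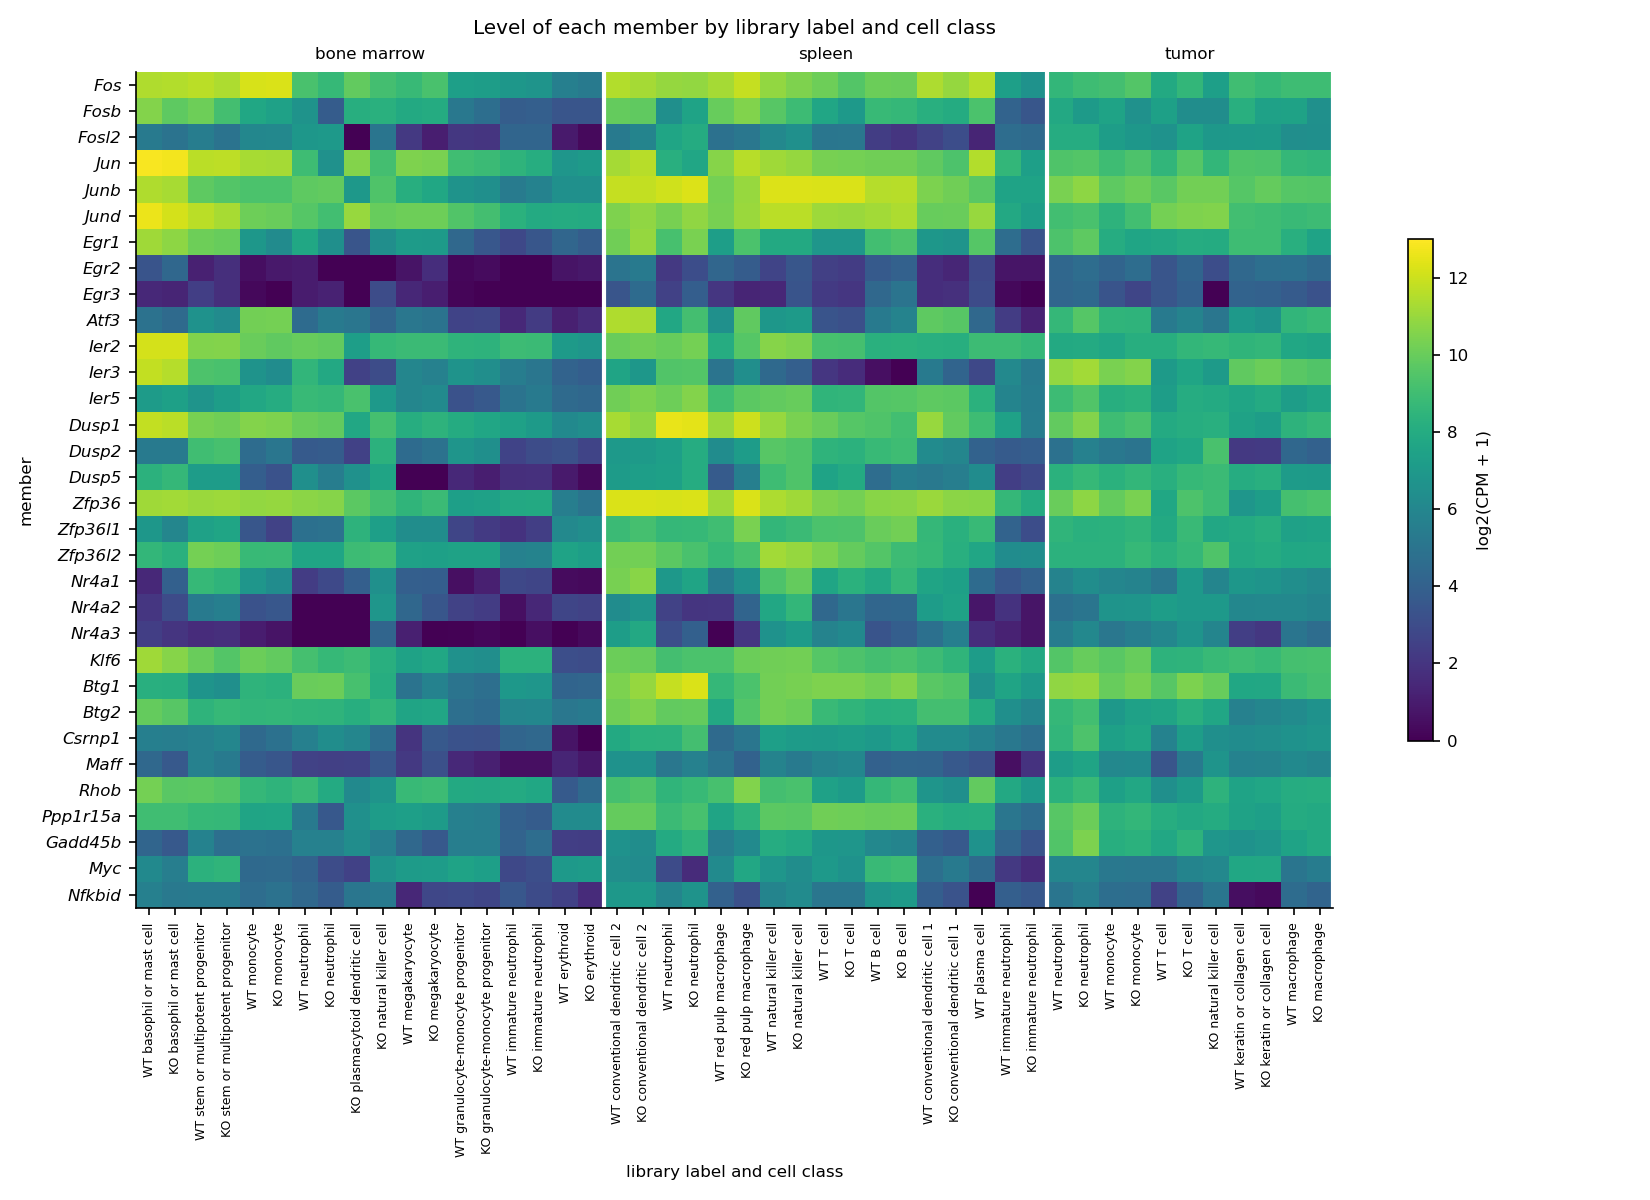
Level of each of the 32 members (rows) in each library and cell class with at least 50 cells (columns, grouped by tissue), as log2(CPM + 1). Read along a row, Atf3 is bright in spleen cDC2 and marrow monocytes, Ier3 in basophil or mast cells and tumor neutrophils, and Nr4a1 in spleen cDC2 and NK cells, and the erythroid and granulocyte-monocyte progenitor columns are dark for most rows.

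Counted by the class with the highest level, 17 of 32 members peaked in basophil or mast cells and 10 in stem or multipotent progenitors of the WT marrow, against 15 and 6 in the library labelled Cysltr1 KO, which also had NK and plasmacytoid dendritic cells in sufficient number. In spleen 10, 9 and 5 members peaked in NK cells, cDC2 and neutrophils of the WT library and 7, 9 and 8 in the other. In both tumor libraries 18 of 32 members were highest in neutrophils. How closely a member followed the rest of the set was described by the Spearman correlation of its level with the sum of the other 31 over the 46 library classes, which share their libraries. Zfp36 (0.91), Dusp1 (0.89), Btg2 (0.88), Klf6 (0.84) and Ppp1r15a (0.81) followed the sum most closely. Gadd45b (0.35), Fosl2 (0.33), Nr4a2 (0.24), Ier3 (0.14) and Myc (0.10) followed it least.

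The genes outside the set whose levels followed its sum most closely over the same 46 library classes were Ccnl1 (Spearman 0.825), Srsf5 (0.798), Pnrc1 (0.776), Per1 (0.769), Txnip (0.764), Ddx5 (0.762), Ppp1r10 (0.756), Klhl24 (0.749), Kpna4 (0.746) and Rgs2 (0.744), of 5671 genes ranked with a median of 0.074. Ccnl1 encodes a cyclin of the splicing machinery, Srsf5 and Ddx5 encode a splicing factor and an RNA helicase, and Per1 is a clock gene that is itself induced by CREB. Per1 ran from 3.81 CPM to 227 CPM, and 4 of the 10, Ccnl1, Srsf5, Per1 and Rgs2, had their highest value in spleen cDC2 of the library labelled Cysltr1 KO.

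Single cells of a class varied widely. To compare cells at equal depth, each cell was thinned to 1000 UMIs and shallower cells were left out (105 of 2454 in WT spleen neutrophils, 315 of 1015 in WT tumor neutrophils). In WT marrow basophil or mast cells the median cell then had 4.4% of its UMIs in the 32 members (10th to 90th percentile, 1.90 to 8.40%; 4.48% unthinned), with 12 members seen. In WT spleen neutrophils the median was 3.70% (1.20 to 6.30%; 3.72% unthinned), also with 12 members seen, and in WT tumor neutrophils 1.5% (0.80 to 2.60%; 1.39% unthinned) with 9. Cells with no member UMI were rare: at 1000 UMIs at least 1 was present in 99.9% of WT spleen neutrophils, 90.1% of WT granulocyte-monocyte progenitors and 67.2% of WT erythroid cells. Depth itself moved with the level in some classes, and in WT spleen neutrophils the member level of a cell and its total UMIs had a Pearson correlation of -0.63.

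Members were only loosely correlated over cells. Over thinned cells, the median correlation between pairs of members seen in at least 5% of cells was between 0.027 and 0.172 in the classes with at least 200 cells. The pairs with the highest medians over library classes were Fos with Dusp1 (0.208 over 26), Fos with Fosb (0.196 over 20), Egr1 with Zfp36 (0.189 over 22), Fos with Egr1 (0.186 over 22) and Junb with Dusp1 (0.184 over 26). Jun with Jund reached 0.590 in marrow basophil or mast cells of the library labelled Cysltr1 KO, and Junb with Dusp1 reached 0.519 in WT spleen neutrophils. These are descriptions over cells of 1 library each, in sparse counts.

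Neutrophils were the class held in number by all 3 tissues, with 232 and 947 cells in marrow, 2454 and 1100 in the spleen and 1015 and 1212 in tumor. Most of their immediate early genes were higher in spleen than in marrow, and between spleen and tumor the members split. Marrow was enriched with another kit than spleen and tumor. In this and every other class, tissue and isolation therefore cannot be told apart in comparisons with marrow. The part of handling in any tissue difference was not tested. A difference was called at 1.5-fold or more on log2(CPM + 1) with exact 95% Poisson intervals that do not overlap and at least 30 UMIs over both sums. From marrow to spleen 23 of 31 tested members were higher and 2 lower with the WT label, where 20.4% and 6.77% of all genes tested were higher and lower, and 28 of 29 were higher and 0 lower with the label Cysltr1 KO, where the shares were 34.2% and 9.53%. The median log2 difference of the members was 1.52 and 2.57 (1.5 and 2.57 with members at 0 in marrow set to a floor of 3 counts), beside 0.30 and 0.43 over all genes. The same 23 members were higher with both labels among 29 tested in both, as were 19.6% of genes. Scaling by median ratios moved these comparisons by 0.32 and 0.47 on the log2 scale with 20 and 25 members then higher and 3 and 0 lower.

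Dusp1 had 1034 and 947 CPM in marrow neutrophils, 6052 and 5622 CPM in spleen neutrophils and 945 and 1563 CPM in tumor neutrophils. The spleen to marrow ratio was 5.86 (95% interval 5.51 to 6.23) and 5.94 (5.67 to 6.21), and the tumor to spleen ratio 0.16 (0.15 to 0.17) and 0.28 (0.27 to 0.29). Spleen thus stood above both other tissues, whose values lay close together with the WT label. Zfp36 had the same shape, with 1726 and 1575 CPM in marrow, 4694 and 4972 CPM in the spleen and 1031 and 1783 CPM in tumor. So did Fos (615 and 416, 2001 and 1900, 387 and 490 CPM) and Junb (876 and 926, 4288 and 5182, 1322 and 1752 CPM). Btg1, Ier5, Btg2, Zfp36l2, Nr4a1 and Dusp2 were likewise highest in spleen with both labels. Ier2, a nuclear early response gene, did not pass the call between marrow (1016 and 955 CPM) and spleen (1012 and 1258 CPM) and fell to 241 and 245 CPM in tumor, the only member lower in tumor than in marrow neutrophils with both labels.

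Other members stood higher again in the tumor, in a share close to that of all genes, given below. Gadd45b, a stress and NF-kB target that activates p38 signalling, had 51.3 and 51.4 CPM in marrow neutrophils, 245 and 349 CPM in spleen and 700 and 1379 CPM in tumor, a tumor to spleen ratio of 2.86 (2.64 to 3.10) and 3.95 (3.67 to 4.26). Maff had 4.84 and 4.43, 35.1 and 52.3, and 150 and 189 CPM in the same order. Both genes stepped up at each tissue with both labels. Ier3 had 378 and 225, 702 and 735, and 1916 and 2333 CPM. Ppp1r15a, which restarts translation after stress, had 40.7 and 11.1, 469 and 604, and 780 and 1067 CPM. Dusp5 also rose in both steps, to 312 and 423 CPM in tumor. Nr4a3 had 0 UMIs in the marrow sums of 1032312 and 2255506 UMIs, 7.84 and 14.8 CPM in spleen and 42.6 and 65.0 CPM in tumor, so that its tumor level was at least 14.7-fold and 48.9-fold that of marrow against a floor of 3 counts per library.

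From spleen to tumor 13 of 32 members were higher and 13 lower with the WT label (38.1% and 21.8% of all genes), and 11 higher and 14 lower with the label Cysltr1 KO (35.3% and 26.6%). With both labels, 10 were higher (Jun, Egr2, Ier3, Dusp5, Nr4a2, Nr4a3, Maff, Ppp1r15a, Gadd45b and Myc) and 13 lower (Fos, Junb, Jund, Ier2, Ier5, Dusp1, Dusp2, Zfp36, Zfp36l2, Nr4a1, Btg1, Btg2 and Nfkbid), and 0 went in opposite directions, beside 31.8% and 20.5% of all genes. The share of members higher in tumor, 40.6 and 34.4%, was thus close to that of all genes. The share lower, 40.6 and 43.8%, was above it. The median log2 differences were 0.16 and -0.23, beside 0.31 and 0.15 over all genes. The AP-1 genes therefore parted, with Fos, Junb and Jund lower and Jun and Maff higher, as did the phosphatases, with Dusp1 and Dusp2 lower and Dusp5 higher. The spleen libraries enter both steps, so a high spleen value shows in each. Between marrow and tumor directly, 18 of 30 members were higher and 3 lower with the WT label (44.6% and 15% of genes), and 28 of 32 higher and 1 lower with the label Cysltr1 KO (46.5% and 17.9%).

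Free RNA set a limit on some of the tumor values. Krt8, a keratin of the carcinoma, had 205 and 210 CPM in tumor neutrophils, 26.7 and 27.0% of its level in the keratin or collagen cells. If the members of those cells were present at the same share, they would make up 13.4 and 10.4% of the summed level in tumor neutrophils, but 92.7 and 96.2% of Myc and 63.8 and 56.9% of Nr4a2. For Myc and Nr4a2 most of the tumor neutrophil value could thus be matched by free RNA at that share, as could 55.9 and 35.2% of Nr4a1. In marrow and spleen the corresponding shares, of Elane from progenitors and S100a8 from neutrophils, were at most 2.72% outside immature neutrophils. Marrow granulocyte-monocyte progenitors and spleen neutrophils were themselves the source classes, so free RNA in them was not estimated.

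Immature neutrophils, the granule-making stage before these cells, carried few immediate early transcripts in either tissue that held them. The summed level of the 32 members was 2711 and 2495 CPM in marrow and 3278 and 2177 CPM in spleen, where mature neutrophils held 10720 and 8894 CPM and 31025 and 35946 CPM. From marrow to spleen 10 of 24 tested members were higher and 0 lower with the WT label (6.2% and 8.18% of all genes), and 2 of 23 were higher and 5 lower with the label Cysltr1 KO (3.38% and 5.85%). Junb was the 1 member called higher with both labels, at 41.9 and 52.5 CPM in marrow and 183 and 186 CPM in spleen.

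**Figure D3:**
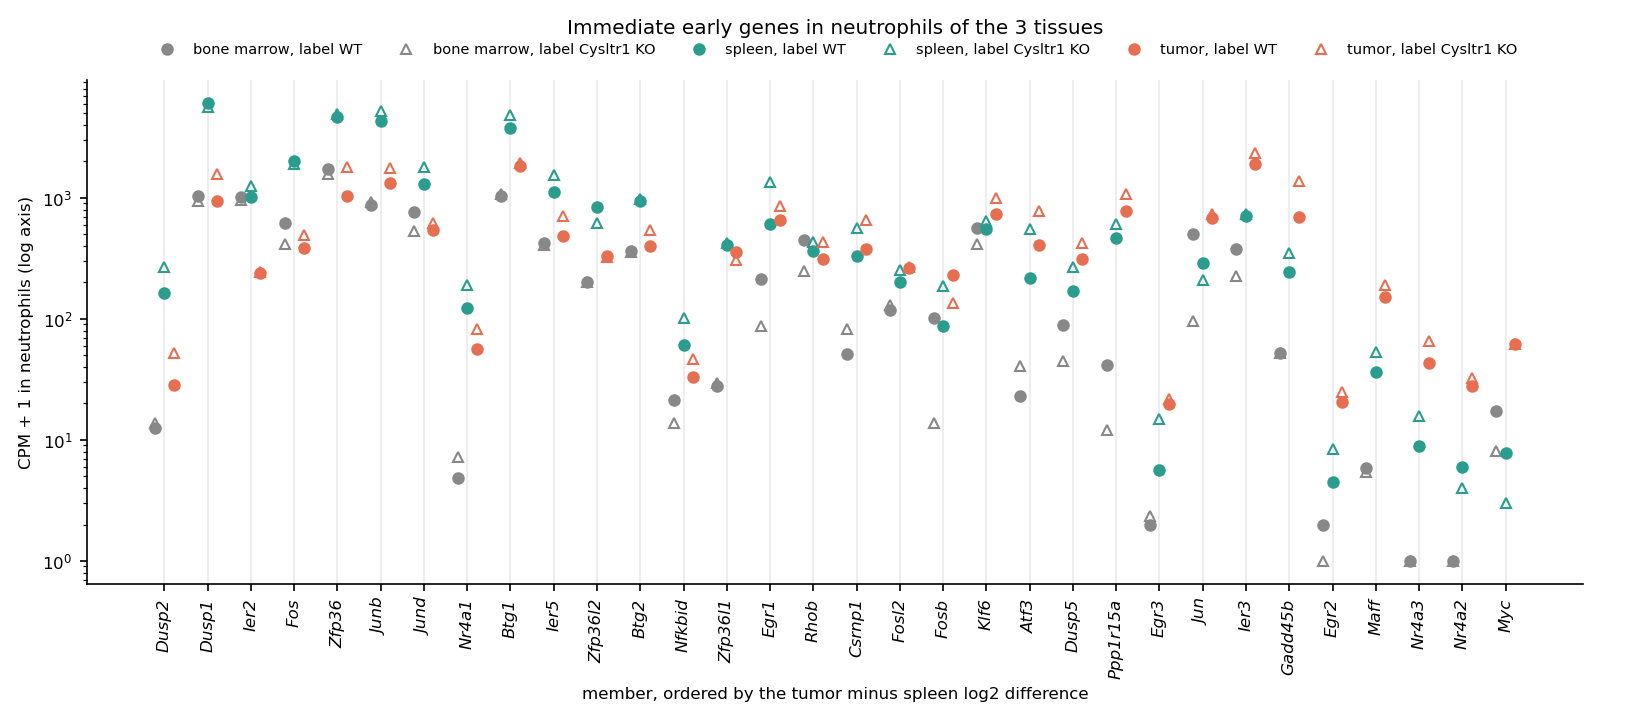
Level of each of the 32 members in the neutrophils of bone marrow (grey), spleen (green) and tumor (orange), as CPM + 1 on a log axis, with filled circles for the label WT and open triangles for Cysltr1 KO, ordered by the tumor minus spleen log2 difference. Spleen values are on top at the left, from Dusp2 to Btg2 except for Ier2 with the WT label, and tumor values on top at the right, from Jun to Myc.

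Promoters were examined for 27 of the 32 members, those in a RefSeq table (GRCm38.p6) of windows from 250 bases before to 50 after the start of 27025 genes. Egr1, Egr3, Ier2, Zfp36l2 and Myc were not among them. The 200 bases before the start are printed for Fos, Dusp1 and Zfp36, which fell from spleen to tumor neutrophils, for Nr4a3 and Gadd45b, which rose, and for Fosb, whose level differed most often between the labels. Capitals mark the cAMP response element TGACGTCA or its shorter core TGACG, the AP-1 site TGANTCA, the CArG box of SRF, TATAAA and the EGR site GCGNGGGCG, on either strand. Fos lies on the plus strand (chr12:85473690-85473889), Dusp1 on the minus strand (chr17:26508473-26508672), Zfp36 on the minus strand (chr7:28379229-28379428), Nr4a3 on the plus strand (chr4:48045105-48045304), Gadd45b on the plus strand (chr10:80929891-80930090) and Fosb on the minus strand (chr7:19310046-19310245).
Fos: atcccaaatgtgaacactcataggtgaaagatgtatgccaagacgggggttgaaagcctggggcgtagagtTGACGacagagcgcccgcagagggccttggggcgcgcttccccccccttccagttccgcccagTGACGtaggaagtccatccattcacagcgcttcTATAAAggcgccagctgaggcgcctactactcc
Dusp1: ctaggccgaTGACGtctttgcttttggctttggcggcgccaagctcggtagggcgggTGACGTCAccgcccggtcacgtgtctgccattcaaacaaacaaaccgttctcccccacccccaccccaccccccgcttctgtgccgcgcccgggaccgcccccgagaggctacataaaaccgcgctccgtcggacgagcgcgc
Zfp36: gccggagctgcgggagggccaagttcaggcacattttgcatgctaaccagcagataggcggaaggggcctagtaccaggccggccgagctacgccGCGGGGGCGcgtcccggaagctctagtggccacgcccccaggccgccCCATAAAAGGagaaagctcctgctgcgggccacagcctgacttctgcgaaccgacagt
Nr4a3: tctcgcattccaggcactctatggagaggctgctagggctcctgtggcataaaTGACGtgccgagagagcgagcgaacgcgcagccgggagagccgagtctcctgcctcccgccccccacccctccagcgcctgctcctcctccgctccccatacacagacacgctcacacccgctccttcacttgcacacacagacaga
Gadd45b: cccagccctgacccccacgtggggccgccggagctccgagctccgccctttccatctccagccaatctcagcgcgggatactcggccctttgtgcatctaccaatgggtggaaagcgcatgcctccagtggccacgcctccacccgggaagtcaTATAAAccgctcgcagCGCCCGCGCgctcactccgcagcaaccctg
Fosb: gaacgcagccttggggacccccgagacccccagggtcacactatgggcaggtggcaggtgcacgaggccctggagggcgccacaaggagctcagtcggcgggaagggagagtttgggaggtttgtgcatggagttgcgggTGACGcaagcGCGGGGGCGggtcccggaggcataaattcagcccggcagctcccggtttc

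Fos shows a pair of TGACG cores and a TATA box, Dusp1 a full element and a core, and Zfp36 a CArG box and an EGR site. Over the whole windows, 17 of 27 members (63.0%) held TGACG, beside 23.0% of all genes in the table. The full element, TGACGTCA, was in 5 (18.5%: Dusp1, Btg2, Maff, Ppp1r15a and Nfkbid), beside 2.03% of genes, and contains the core. The CArG box was in 3 (11.1%: Egr2, Dusp5 and Zfp36), beside 1.81%, the EGR site in 9 (33.3%), beside 6.27%, the SP1 site GGGCGG in 23 (85.2%), beside 38.2%, TATAAA in 7 (25.9%), beside 15.7%, and the AP-1 site in 2 (7.41%), beside 8.97%. A gene was counted where any of its windows held the motif, and the 27 members had 38 windows. Per window, TGACG was in 60.5% beside 20.8%, the full element in 13.2% beside 1.79% and the CArG box in 15.8% beside 1.63%. The EGR site was in 23.7% beside 5.55%, the SP1 site in 68.4% beside 35.7%, TATAAA in 18.4% beside 13.6% and the AP-1 site in 5.26% beside 7.81%. The members' windows were richer in G and C, with a median of 62.5% against 52.7%. The letters did not separate the groups of tumor neutrophils: TGACG was in 6 of 9 members with a window among those higher in tumor than spleen and in 8 of 11 among those lower.

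Genes of the surrounding pathways, from lists written with earlier results of these data known, moved as follows in neutrophils. From marrow to spleen, 15 of 21 tested NF-kB feedback and early cytokine genes were higher and 2 lower with the WT label, and 20 of 20 higher with the label Cysltr1 KO, beside 20.4% higher and 6.77% lower of all genes tested with the WT label and 34.2% and 9.53% with the other. From spleen to tumor 16 of 21 were higher and 1 lower, and 13 higher and 2 lower, where 38.1% and 21.8% of genes with the WT label and 35.3% and 26.6% with the other were called. Among them was Il1a, a cytokine released by damaged or activated cells, at 4.50 and 7.09 CPM in spleen and 420 and 843 CPM in tumor. Free RNA at the share of Krt8, given above, would make up 0.164 and 0.0786% of this tumor value. Heat shock genes were higher in tumor in 14 of 15 with either label (median log2 difference 2.85 and 2.99), with Hspb1, a small chaperone, at 0.29 and 0 CPM in spleen and 267 and 201 CPM in tumor. Free RNA at that share would give 104 and 96.6% of the tumor value of Hspb1, and the part of free RNA in the other genes of the list was not tested. ERK feedback genes were higher in 6 of 7 and 4 of 6 tested, with Dusp4, another MAP kinase phosphatase, at 0.291 and 2.02 CPM in spleen and 33.6 and 26.0 CPM in tumor, of which the same share would give 34.0 and 48.3%. Of the kinases and factors upstream of the members 6 were higher and 4 lower of 19, and 5 and 5 of 18, close to the shares of all genes in this step.

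The fall of Fos and Dusp1 from spleen to tumor was also called in T cells with both labels. In monocytes both genes were called lower in tumor than in marrow. Neutrophils did not share that difference between marrow and tumor. There the log2 difference of Fos was -0.67 (called) and 0.23 (not called), and that of Dusp1 -0.13 (not called) and 0.72 (called higher). In T cells (2860 and 3580 cells in spleen, 66 and 149 in tumor) 7 of 32 members were higher and 21 lower with the WT label, where 11.2% and 6.28% of genes were, and 9 higher and 12 lower with the label Cysltr1 KO, where 14.1% and 8.66% were. Members lower with both labels were Fos, Jun, Junb, Dusp1, Dusp2, Zfp36, Zfp36l2, Nr4a1, Klf6, Ppp1r15a and Myc, 11 of 32 beside 4.17% of genes, and those higher were Fosl2, Egr1, Atf3, Ier3, Dusp5, Nr4a2 and Gadd45b, 7 of 32 beside 7.49%. Junb had 4992 and 4869 CPM in spleen T cells and 813 and 1196 CPM in tumor T cells, a ratio of 0.16 (0.14 to 0.19) and 0.25 (0.22 to 0.27). Nr4a2 went the other way, from 19.9 and 32.9 CPM to 151 and 124 CPM. Ier3 had 3.17 and 2.15 CPM in spleen T cells and 136 and 201 CPM in tumor T cells, but 67.7 and 66.3% of the tumor value could be matched by free RNA at the share of Krt8. In the lists, genes of quiescent lymphocytes were lower in 5 and 4 of 7, and NF-kB and early cytokine genes higher in 7 of 19 and 15 of 20.

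NK cells could be compared with the label Cysltr1 KO alone, in 60, 265 and 89 cells of marrow, spleen and tumor. Their summed level was 7769 CPM in marrow, 29519 CPM in spleen and 10219 CPM in tumor. From marrow to spleen 26 of 29 members were higher and 0 lower (12.6% and 9.6% of genes), and from spleen to tumor 2 of 30 were higher and 20 lower (6.61% and 11.7%). Nr4a1 fell from 985 CPM in spleen to 58.9 CPM in tumor, a ratio of 0.06 (0.03 to 0.10), and Fos from 1410 to 158 CPM. The spleen library was again the highest, with the limit on isolation and handling given for neutrophils. Ier3 was 1 of the 2 members higher in tumor, and there free RNA at the share of Krt8 would give 110% of its value.

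Monocytes were compared between marrow and tumor, in 339 and 705 cells against 170 and 173. With the WT label 11 of 29 members were higher in tumor and 10 lower (15.7% and 20.9% of genes), and with the label Cysltr1 KO 13 of 30 were higher and 9 lower (13.6% and 24.9%). Fos fell from 4703 and 4896 CPM to 552 and 727 CPM, a ratio of 0.12 (0.10 to 0.13) and 0.15 (0.14 to 0.16). Jun fell from 2538 and 2393 to 501 and 655 CPM, and Atf3 from 1182 and 1249 to 365 and 348 CPM. Ier3 rose from 101 and 78.4 to 1357 and 1531 CPM, Dusp5 from 13.7 and 8.69 to 319 and 390 CPM and Gadd45b from 28.7 and 26.5 to 283 and 319 CPM. With both labels, Fos, Jun, Jund, Atf3, Ier2, Dusp1, Btg2 and Rhob were lower, 8 of 29 beside 16.8% of genes, and 11 of 29 were higher beside 11%, Ier3, Dusp5, Gadd45b and Maff among them. Over all genes, the median log2 difference was -0.26 and -0.40, and scaling by median ratios moved the values by -0.33 and -0.42.

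The comparison of the library labelled Cysltr1 KO with that labelled WT was made in the 16 classes with at least 100 cells in both. Of 512 pairs of a member and a class, 465 had enough UMIs. Of these, 28 (6.02%) were higher and 26 (5.59%) lower in the library labelled Cysltr1 KO, beside 1.71% and 1.89% of all pairs of a gene and a class. In marrow 2 of 184 pairs were higher and 14 lower (1.09% and 7.61%, beside 0.97% and 1.29% of genes; 10 higher with doublets kept), in spleen 19 of 156 higher and 7 lower (12.2% and 4.49%, beside 2.38% and 2.02%) and in tumor 7 of 125 higher and 5 lower (5.60% and 4%, beside 2.05% and 2.69%). The difference between the tissues was not tested. Hspa1a and Hspa1b had ratios of 0.05 to 0.50 in the marrow and spleen classes with a UMI in both libraries and of 0.73 to 1.98 in the tumor classes. Their part in these differences was not tested.

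Spleen neutrophils held the most calls, 10 members higher and 1 lower of 32, where 5.26% and 3.96% of genes were. Atf3 had 218 and 550 CPM, a ratio of 2.52 (2.35 to 2.71). Egr1 had 603 and 1355 CPM (2.25, 2.15 to 2.35), and Fosb, a FOS relative, had 87.1 and 187 CPM (2.14, 1.90 to 2.41). These 3 were also higher within each of the 3 neutrophil clusters with at least 100 cells per library. Csrnp1 (330 and 558 CPM), Nfkbid (60.1 and 100 CPM), Dusp2 (163 and 265 CPM), Dusp5 (169 and 266 CPM) and Nr4a1 (122 and 190 CPM) were higher as well, but within the clusters Dusp2 was called in 2, Nr4a1 in 1 and the other three in 0. The makeup of the class differed, since a cluster led by interferon-induced genes held 14.0% of WT neutrophils and 36.0% of the others, and the summed level of all members within a cluster was 49344 and 44872, 23717 and 23584, and 39853 and 39448 CPM. The 1 member called lower over the class was Myc, which was under 10 CPM in both libraries. Zfp36l2, at 835 and 625 CPM, was not called over the class but was called lower in all 3 clusters. Jun, at 291 and 208 CPM and also not called over the class, was called lower in 2 of them. Of the NF-kB and early cytokine genes 10 of 21 were higher and 0 lower, among them Ccl4 (147 and 598 CPM), Ccl3 (253 and 561 CPM) and Relb (23.1 and 49.9 CPM). Upstream kinases and factors were higher in 1 of 19.

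Tumor neutrophils had 6 members higher and 1 lower of 32, where 2.54% and 4.13% of genes were. Gadd45b had 700 and 1379 CPM, a ratio of 1.97 (1.83 to 2.13), Atf3 404 and 772 CPM (1.91, 1.73 to 2.12) and Csrnp1, a nuclear transcriptional activator, 377 and 656 CPM (1.74, 1.57 to 1.94). Feedback genes were among them, with Zfp36 at 1031 and 1783 CPM (1.73, 1.62 to 1.84) and Dusp1 at 945 and 1563 CPM (1.65, 1.55 to 1.77). The makeup of this class differed too, since a cluster with Gadd45b at 1504 and 2225 CPM held 16.9% of WT tumor neutrophils and 36.2% of the others. Atf3 and Csrnp1 were higher within each of the 3 clusters tested, Gadd45b, Dusp1 and Zfp36 within 2 of them, and Dusp2 (27.7 and 50.9 CPM) within 1. The summed level was higher in the library labelled Cysltr1 KO in each cluster, at 16187 and 20591, 13036 and 15853, and 17714 and 23238 CPM. Atf3 was thus called higher in spleen and in tumor neutrophils of the libraries labelled Cysltr1 KO. Here 8 of 21 NF-kB and early cytokine genes were higher and 0 lower, led by Icam1 (97.9 and 293 CPM), Sod2 (453 and 987 CPM), Il1a (420 and 843 CPM) and Ccl4 (3063 and 5619 CPM). Hspa1a and Hspa1b together were equal in this class, at 134 and 131 CPM.

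Over the whole class, marrow neutrophils had 1 member higher and 7 lower of 26 tested, where 0.928% and 3.34% of genes were. Jun had 505 and 95.8 CPM (0.19, 0.16 to 0.22), Fosb 99.8 and 12.9 CPM (0.13, 0.08 to 0.20), Egr1 212 and 86.9 CPM (0.41, 0.34 to 0.50), Ppp1r15a 40.7 and 11.1 CPM (0.27, 0.16 to 0.46) and Rhob, a small GTPase gene, 447 and 247 CPM (0.55, 0.49 to 0.63). Within the main cluster fewer members were called, and the median log2 difference of the tested members was 0.06. In the cluster that held 88.4 and 88.3% of these neutrophils, 1 member was higher (Csrnp1, 55.5 and 89.4 CPM) and 2 were lower (Jun, 175 and 107 CPM, and Rhob, 398 and 242 CPM), the sum of all members was 9163 and 9538 CPM, and the log2 difference of Egr1 was 0.58.

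**Figure D4:**
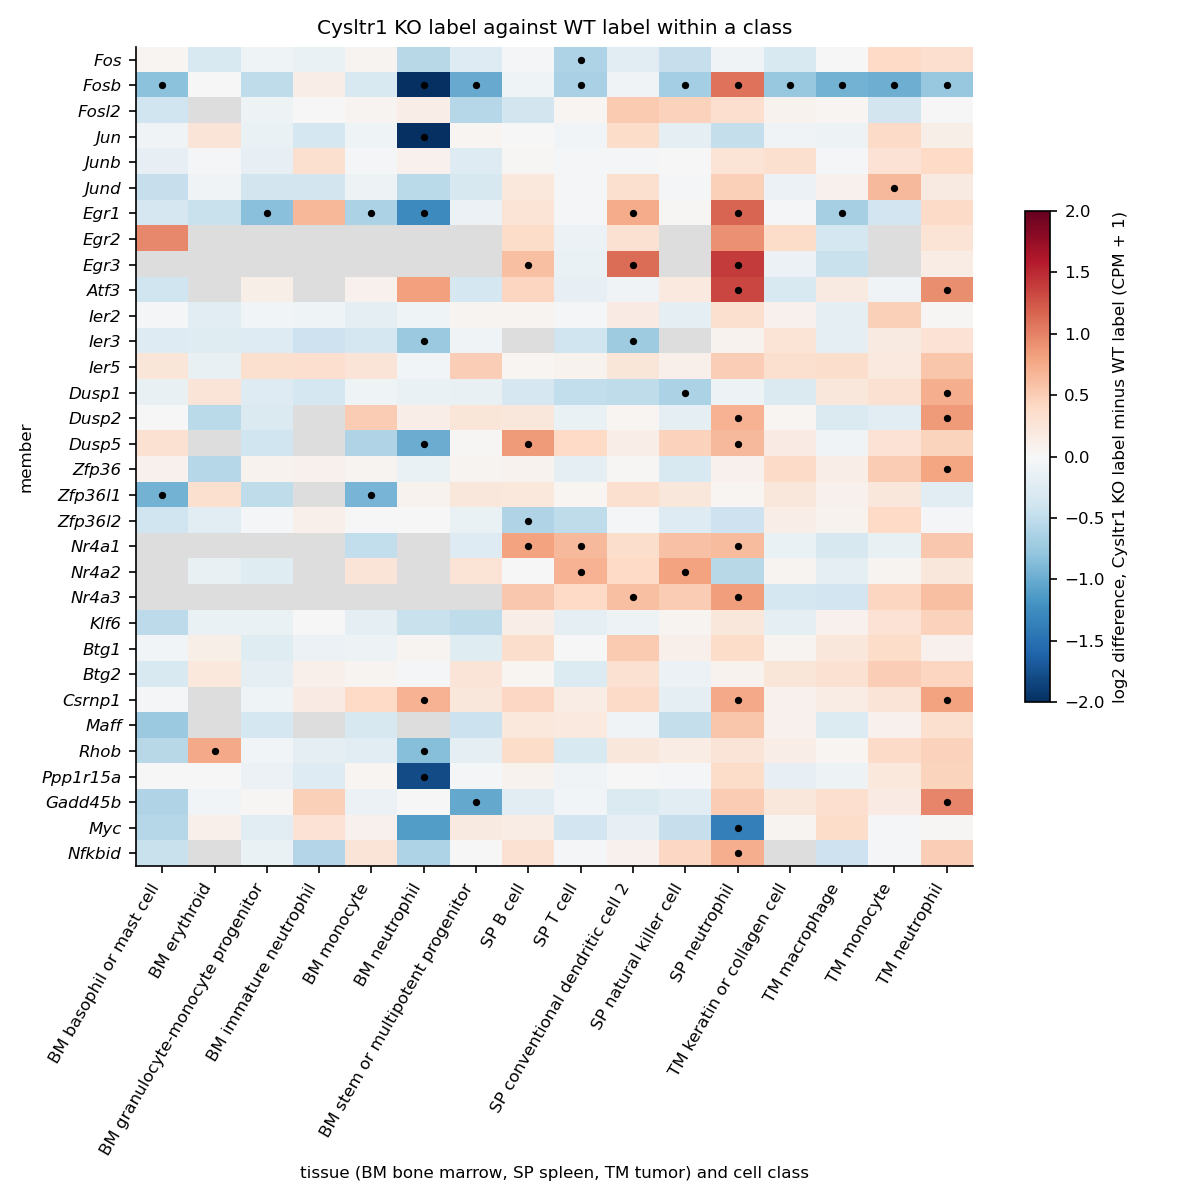
Log2 difference of each member (rows) between the library labelled Cysltr1 KO and that labelled WT in the 16 classes with at least 100 cells in both (columns), on log2(CPM + 1), with colours limited to -2 to 2, grey where both sums held under 30 UMIs together and a dot where the difference was called. Fosb is blue with a dot in 9 of the 16 columns and red in spleen neutrophils.

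Fosb was the member that differed most often, lower in 9 of 16 classes and higher in 1. It lies on chromosome 7 (19302696 to 19310051, minus strand, build mm10). In marrow it had 1561 and 881 CPM in basophil or mast cells (0.56, 0.53 to 0.61) and 1127 and 563 CPM in stem or multipotent progenitors (0.50, 0.45 to 0.55), beside the neutrophils above. In spleen it had 203 and 129 CPM in T cells (0.63, 0.60 to 0.68) and 779 and 485 CPM in NK cells (0.62, 0.55 to 0.71). In all 4 tumor classes it was lower, with 289 and 170 CPM in keratin or collagen cells, 176 and 91.0 CPM in macrophages, 185 and 94.0 CPM in monocytes and 228 and 134 CPM in neutrophils. Free RNA from the keratin or collagen cells at the share of Krt8 would give 12.3 and 11.5% of Fosb in macrophages. In monocytes it would give 23.4 and 16.9%, and in neutrophils 33.8 and 34.2%. Its part in the label differences was not tested. Fosb was not called within the largest neutrophil cluster of tumor (log2 difference -0.41) or of marrow (-0.84). The share of cells with a Fosb UMI at 1000 UMIs fell likewise, from 67.1 to 53.3% in basophil or mast cells, from 29.8 to 19.3% in keratin or collagen cells and from 16.1 to 9.85% in spleen T cells, and rose from 8.77 to 15.6% in spleen neutrophils. Unthinned, those shares were 91.2 and 82.0%, 77.9 and 69.3%, 36.2 and 27.4%, and 15.9 and 27.7%. Fos, its relative, was called lower in 1 class, spleen T cells (1105 and 723 CPM; 0.65, 0.64 to 0.67). Of 3015 genes tested in all 16 classes, 3 (0.1%) were lower in 9 or more, Fosb, Rtf2 and Arl2bp, the latter both named after their values were seen. The cut of 9 is the count of Fosb itself, which was picked as the member with the most calls. The classes of a tissue also share its libraries, so this share is a description alone. At a call of 2-fold Fosb was lower in 2 classes.

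The other classes had few calls. In spleen B cells Nr4a1 (232 and 407 CPM; 1.75, 1.63 to 1.89), Dusp5 (24.3 and 44.7 CPM) and Egr3 (20.1 and 31.0 CPM) were higher and Zfp36l2 (727 and 481 CPM) lower, 3 and 1 of 31 where 1.68% and 2.03% of genes were. In spleen T cells Nr4a1 (202 and 317 CPM; 1.57, 1.49 to 1.66) and Nr4a2 (19.9 and 32.9 CPM) were higher and Fos and Fosb lower, 2 and 2 of 32 where 1.06% and 1.92% were. In spleen NK cells Nr4a2 (220 and 384 CPM) was higher and Fosb and Dusp1 (2048 and 1315 CPM) lower, 1 and 2 of 29 where 1.36% and 0.889% were. Genes of the NR4A family were thus among the members higher in each of these 3 lymphocyte classes. They were also called higher in spleen neutrophils (Nr4a1 and Nr4a3) and in cDC2 (Nr4a3). Within the 3 spleen neutrophil clusters, however, Nr4a1 was called in 1 and had a log2 difference of -0.01 in the largest. Nr4a3 had enough UMIs in 1 cluster and was not called there. In cDC2 Egr1 (1164 and 1940 CPM; 1.67, 1.59 to 1.74), Egr3 (9.92 and 22.6 CPM) and Nr4a3 (149 and 227 CPM) were higher and Ier3 (191 and 117 CPM) lower, 3 and 1 of 32 where 3% and 1.27% were.

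In marrow, basophil or mast cells had 0 members higher and 2 lower of 28 (1.49% and 1.08% of genes), Fosb and Zfp36l1 (117 and 60.7 CPM), and stem or multipotent progenitors 0 and 2 of 29 (0.676% and 0.863%), Fosb and Gadd45b (52.8 and 25.4 CPM). Egr1 was lower in granulocyte-monocyte progenitors (19.7 and 10.6 CPM; 0 and 1 of 28, 0.7% and 1.49%) and in monocytes (118 and 76.3 CPM), where Zfp36l1 was also lower (10.2 and 4.87 CPM; 0 and 2 of 29, 1.54% and 1.17%). Erythroid cells had 1 member higher of 22 (0.677% of genes), Rhob at 11.8 and 20.7 CPM, which turned to a log2 difference of -0.45 in thinned cells. Immature neutrophils had 0 calls of 22, where 0.817% and 0.908% of genes were called higher and lower. In tumor macrophages Fosb and Egr1 (295 and 186 CPM; 0.63, 0.59 to 0.68) were lower, 0 and 2 of 32 where 1.85% and 2.68% of genes were. Tumor monocytes had Jund higher (338 and 533 CPM) and Fosb lower, 1 and 1 of 30 (2.49% and 4.34%), and keratin or collagen cells Fosb lower alone, 0 and 1 of 31 (1.76% and 1.2%).

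Heat shock transcripts were used as a second readout of stress in the same cells. The correlation over cells between the summed members and Hspa1a plus Hspa1b, on log-normalised values, was Pearson 0.304 over 2133 tumor keratin or collagen cells of the WT library, the highest of the library classes in which it was computed, and 0.193 over 972 such cells of the library labelled Cysltr1 KO. After thinning to 1000 UMIs it was 0.237 and 0.163. In thinned WT cells of this class, the 219 with an Hspa1a or Hspa1b UMI held 15731 CPM of members and those without held 8408 CPM, and the values were 12642 and 8417 CPM in the other library. In unthinned cells the gap was smaller, at 8350 against 7297 CPM and 8210 against 7916 CPM. Of single members Jun (0.243), Ppp1r15a (0.203), Egr1 (0.192) and Fosb (0.188) had the highest correlations over thinned cells in the WT library of this class.

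In tumor macrophages the correlation was 0.127 and 0.195 (0.077 and 0.103 thinned), as high unthinned as in the keratin or collagen cells of the library labelled Cysltr1 KO. Thinned macrophages with and without an Hspa UMI held 9213 against 8009 CPM and 9905 against 7986 CPM of members. Unthinned, the values were 8522 against 7702 CPM and 9059 against 7385 CPM. In tumor neutrophils, which had the highest members' sum in the tumor, the correlation was 0.043 and 0.048 (0.050 and 0.022 thinned). In spleen cDC2 of the WT library, where 38.2% of cells held an Hspa UMI and the members' sum was the highest of the tissue, it was -0.006 (0.031 thinned), and in the WT spleen B and T cells -0.003 and 0.030. Marrow basophil or mast cells, stem or multipotent progenitors and the NK cells had too few Hspa UMIs or cells for a value. The cells of each value share 1 library, and in sparse counts such weak values are not a finding.

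**Figure D5:**
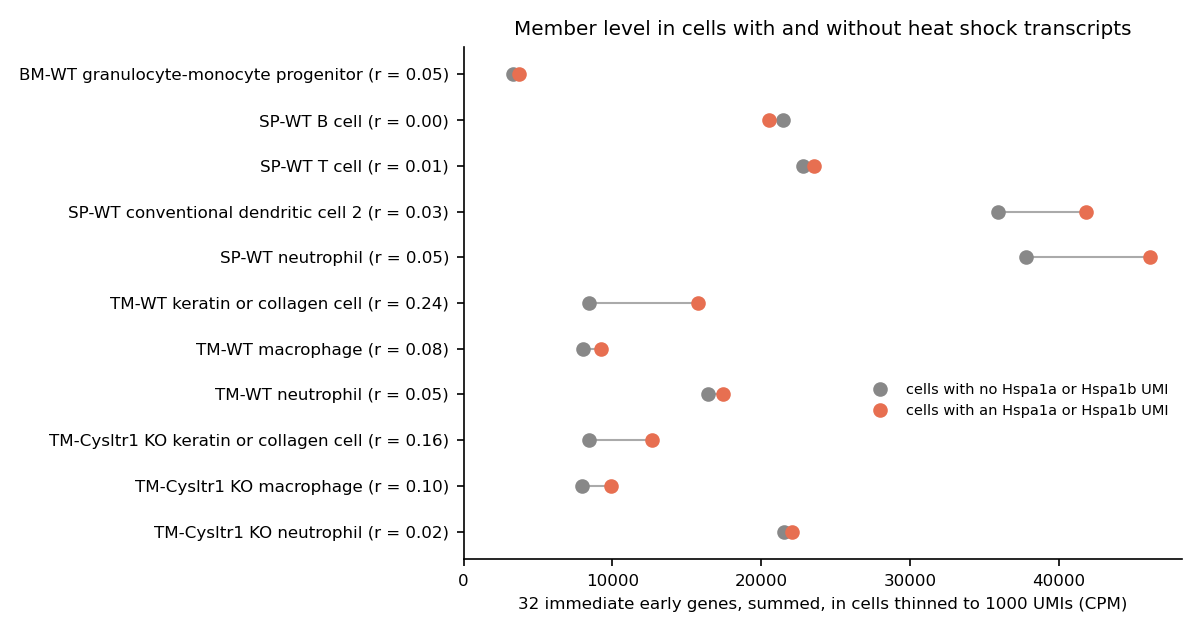
Summed level of the 32 members (CPM) in cells with (orange) and without (grey) an Hspa1a or Hspa1b UMI, after each cell was thinned to 1000 UMIs, for library classes with at least 20 such cells, with Pearson's r over cells in brackets. The gap relative to the level is widest in the tumor keratin or collagen cells of the WT library, at 15731 and 8408 CPM.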

How the data were processed

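The data are UMI counts per gene and barcode as deposited by the authors, whole numbers with no normalization. Per the submitters' processing notes they were made with Cell Ranger 6.0.0 on mm10, while the file headers give Cell Ranger 6.1.0. Since the labels list kits for either transcript end (5' and 3' v3), the end that was read is not settled. In 3 libraries 19 antibody features with 1 to 3 counts in each library were left out. Barcodes were kept with at least 300 genes, 500 UMIs and at most 10% mitochondrial UMIs. The highest Scrublet doublet scores were removed, at 0.8% per 1000 barcodes. Cells were gated on marker genes, and Leiden clusters were built without the members, heat shock, antigen receptor and sex-linked genes. A gated cell was left out where the 10 leading genes of its cluster held more markers of an unrelated class, which left out spleen monocytes. The most cells left out in this way were marrow granulocyte-monocyte progenitors, 1075 and 780.

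Counts were summed per library and class and given as CPM with exact 95% Poisson intervals. A member was called at 1.5-fold on log2(CPM + 1) with intervals that do not overlap and 30 UMIs over both sums. Full values are given for called members with at least 100 UMIs over both sums and 10 CPM in 1 of them, up to 8 in each direction per comparison. Label comparisons used classes with 100 cells in both libraries, tissue comparisons 50, and correlations over cells 200. With 1 library per group no test over animals exists and no p-value is given. The members, lists and markers were chosen with earlier results of these data known. Sequences came from RefSeq promoter windows of GRCm38.p6 and were matched by symbol. The calls were tested on simulated counts. Alternatives were cells thinned to 1000 UMIs, median-ratio scaling, no filter on low counts, a pseudocount of 10 CPM, a call at 2-fold, a mitochondrial limit of 5%, doublets kept and classes from clusters. Single neutrophil clusters, scaling without S100a8 and S100a9, and leaving out members with a Krt8 share of at least 50% were added after seeing the data. Python 3.11.15, numpy 2.4.6, pandas 2.3.3, scipy 1.17.1, scanpy 1.11.5 and matplotlib 3.10.9 were used.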

Additional observations from a re-analysis of the deposited data

Results flagged for a closer look

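Some members differed between the libraries labelled Cysltr1 KO and WT in opposite directions in the neutrophils of different tissues, each difference being called in its own tissue. The difference between the tissues was not tested, since each value rests on 1 library per label. Fosb had log2 differences of -2.86 in marrow, 1.09 in spleen and -0.76 in tumor. Egr1 had -1.28 in marrow and 1.17 in spleen, and Dusp5 had -0.99 in marrow and 0.65 in spleen. Jun is listed for the step from marrow to spleen, where it was lower with the WT label (-0.79) and higher with the label Cysltr1 KO (1.11). In the WT library the marrow values rest in large part on cells outside the cluster that held 88.4 and 88.3% of marrow neutrophils. Fosb had 99.8 CPM over the WT class and 27.7 CPM in that cluster. Within that cluster Egr1 had 67.0 and 101 CPM, a log2 difference of 0.58, in the direction seen in spleen, while Fosb (-0.84), Egr1 and Dusp5 (-0.32) were not called. Dusp5 was not called within any of the 3 spleen neutrophil clusters either. Jun had 175 CPM in that cluster of the WT library, against 505 CPM over the class and 291 CPM in WT spleen neutrophils, so its lower value in WT spleen also rests on the other cells.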

How the results depend on the processing

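No paired analysis was possible because each tissue and genotype had 1 library. Of 339 alternative values of the 40 summary results, 293 stayed within 1.5 times of the reported count or within its interval. None moved under median-ratio scaling, without the filter on low counts, with S100a8 and S100a9 left out of the scaling, or without the members with a Krt8 share of at least 50%. Of 2825 alternative values for 316 called member differences, 2576 stayed called, 244 kept their direction without the call and 5 turned. The turned ones were Rhob in marrow erythroid cells (-0.45, thinned), and, in the leading neutrophil cluster alone, Egr1 (0.58) and Ier3 (0.06) in marrow, Nr4a1 (-0.01) in spleen and Dusp2 (-0.22) in tumor. The cause was not tested.

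Thinning to 1000 UMIs leaves fewer UMIs to call on. It gave 0 lower members from marrow to spleen neutrophils (WT), 8 higher from spleen to tumor neutrophils (WT), 7 and 8 higher in monocytes, 4 higher in WT T cells and 0 higher in tumor against spleen NK cells. Between labels it gave 0 higher and 8 lower pairs in marrow, 3 lower in tumor, 0 higher members in marrow neutrophils, and 6 higher and 0 lower in spleen neutrophils. A call at 2-fold gave 1 lower from marrow to spleen neutrophils (WT), 4 higher in WT T cells and 5 lower in the other T cells. Between labels it gave 0 higher and 6 lower pairs in marrow, 5 and 1 in the spleen and 0 and 0 in tumor. In neutrophils it gave 0 higher and 4 lower in marrow, 4 higher in spleen and 0 and 0 in tumor, and Fosb was lower in 2 classes.

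With a mitochondrial limit of 5%, 1 member was lower from marrow to spleen neutrophils (WT) and 2 were higher in marrow neutrophils between labels. With doublets kept, 10 marrow pairs were higher and 1 member was lower from marrow to spleen neutrophils (label Cysltr1 KO). Classes taken from clusters gave 2 higher in marrow neutrophils and 0 lower in spleen neutrophils. A pseudocount of 10 CPM gave 1 higher marrow pair and 0 lower in spleen neutrophils. By single cluster, marrow neutrophils had 2 lower members, spleen neutrophils 3, 4 and 5 higher and 2 and 2 lower, and tumor cluster 3 had 0 lower. The correlation with Hspa1a plus Hspa1b was 0.237 thinned and 0.263 at the 5% limit in WT keratin or collagen cells, 0.103 thinned in macrophages of the tumor library labelled Cysltr1 KO and 0.148 with doublets kept in WT granulocyte-monocyte progenitors. Counting depth limited 47 of 512 pairs of a member and a class, which had under 30 UMIs.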

Other observations

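Smaller classes held intermediate sums of the 32 members (WT label first where both are given). Megakaryocytes had 6370 and 6703 CPM in 68 and 67 cells, with Jun at 1420 and 1338 CPM. Plasmacytoid dendritic cells of the marrow library labelled Cysltr1 KO had 9490 CPM in 75 cells, with Jund at 2040 CPM and Ier5 at 624 CPM. Plasma cells of the WT spleen had 15800 CPM in 71 cells, with Fos at 3010 CPM and Jun at 2934 CPM.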
